A study of Mus musculus with 12 samples.

Results

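The effect of an Asxl1 guide on open chromatin, without the second mutation of the study, was read by comparing the 3 sgB2/Empty libraries with the 3 sgNT/Empty libraries, 6 of the 12 libraries of the series. All were ATAC-seq libraries, in which a transposase cuts accessible DNA, of mouse HoxB8 cells, a myeloid progenitor line from bone marrow held in an immature state by estrogen-controlled Hoxb8. Every library was made 48 h after estrogen removal, when such cells leave the progenitor state. The sgB2/Empty cells carried guide B2 against Asxl1, made to truncate the protein, and the empty pMICH vector. The sgNT/Empty cells carried a non-targeting guide and the same empty vector. The sgB2/T618I and sgNT/T618I cells, also 3 libraries each, carried the same guides and pMICH with CSF3R T618I, an activating mutant of the G-CSF receptor. They served as a second set in which the guide could be read again. Their libraries also entered the merging of regions, the scaling and filter of genes, and the spread estimated in the gene fit. The labels do not say whether an edited line was 1 clone, nor whether replicate libraries were separate cultures, so p-values measure only the spread between these libraries.

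Asxl1 is a scaffold that binds the deubiquitinase Bap1, which removes ubiquitin from histone H2A and so opposes Polycomb repressive complex 1. ASXL1 has also been tied to Polycomb repressive complex 2, which methylates histone H3 at developmental genes and Hox clusters. Truncating ASXL1 mutations are frequent in human myeloid neoplasms and often occur together with CSF3R mutations in chronic neutrophilic leukaemia.

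The data were 1 list of MACS2 broad peaks per library on build mm10, without any count of reads, which leaves the depth unknown. The sgB2/Empty lists held 20293, 25252 and 25891 peaks, and the sgNT/Empty lists 18484, 26579 and 29699. The ranges overlapped, and off chromosomes 1 and X neither the number of peaks (20914 ± 2576 in sgB2/Empty and 22640 ± 5222 in sgNT/Empty) nor the covered length (10.3 ± 1.67 Mb in sgB2/Empty and 12.3 ± 3.52 Mb in sgNT/Empty) differed beyond the spread (SD, n = 3 each; exact permutation test, two-sided p = 0.6 and 0.5, where 0.1 is the smallest p possible). The median peak was 417 ± 17.2 bp wide in sgB2/Empty and 458 ± 24.3 bp in sgNT/Empty (exact p = 0.2). Pairs of sgB2/Empty lists shared covered bases with a mean Jaccard index of 0.604, pairs of sgNT/Empty lists with 0.557, and pairs across the groups with 0.562. In lists of equal length (the best 18484 peaks of each) these means were 0.678, 0.638 and, across the groups, 0.627, with overlapping ranges. Chromosome 1 stood apart as a whole: it held 9.36 ± 0.67% of the covered length in sgB2/Empty and 6.56 ± 0.14% in sgNT/Empty, and in 20 of 20 bins of 10 Mb every sgB2/Empty library was above every sgNT/Empty library. Chromosome X held 1.85 ± 0.02% in sgB2/Empty and 2.19 ± 0.09% in sgNT/Empty (exact p = 0.1 for either chromosome, the smallest possible). The groups' shares did not overlap at 9 other chromosomes either, but off chromosomes 1 and X the ratio of the mean shares stayed between 0.944 and 0.997. Genes and regions of chromosomes 1 and X were therefore counted apart.

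The cells carried peaks at genes of myeloid progenitors in both groups. Of 9 such marker genes, 8 had a peak in or at the gene in all 6 lists (Kit, Cd34, Mpo, Prtn3, Ctsg, Spi1, Cebpa and Ptprc), while Elane, a neutrophil protease, had one in 0 sgB2/Empty lists and 1 sgNT/Empty list. Among markers of other cells, a peak was found in all 6 lists at 0 of 3 B cell genes, 1 of 3 T cell genes (Lck), 1 of 3 erythroid genes (Klf1), 1 of 3 megakaryocyte genes (Itga2b), 1 of 3 fibroblast genes (Col1a1) and 0 of 3 endothelial genes. Cd3e, Cd4, Hbb-bt, Col1a2, Cdh5 and Tek were among those with no peak in any of the 6. The B cell gene Pax5 had a peak in 2 sgB2/Empty and 3 sgNT/Empty lists.

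At the targeted gene, peaks did not mark the edit. The Asxl1 promoter peak (chr2:153345409-153346618) was present in all 6 lists, 641, 1137 and 1087 bp long in sgB2/Empty and 920, 939 and 1108 bp in sgNT/Empty. Over the gene and 50 kb on either side, peaks covered 2.25, 5.09 and 3.71 kb in sgB2/Empty and 2.24, 2.03 and 3.71 kb in sgNT/Empty, which overlap (log2 change 0.38 ± 0.22, SE; limma adjusted p = 0.63). A small insertion or deletion cannot be seen in a peak list. Csf3r, the receptor gene, covered 2.97 ± 0.43 kb in sgB2/Empty and 3.06 ± 0.26 kb in sgNT/Empty, and Hoxb8 covered 1.01 ± 0.08 kb in sgB2/Empty and 1.0 ± 0.58 kb in sgNT/Empty (SD, n = 3 each), again with overlapping libraries.

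Few sites appeared or disappeared in all 3 libraries. Peaks of all 12 lists that overlapped by 1 bp were merged to regions, of which 36363 off chromosomes 1 and X were found in at least 1 of the 6 Empty lists. Of these, 196 had a peak in all 3 sgB2/Empty lists and in none of the sgNT/Empty lists (0.539%, called gained) and 318 had the reverse (0.875%, called lost). These counts have no test, since presence in 3 against 3 lists cannot pass 0.05 in an exact permutation test. The excess of lost regions followed the lists used: in lists of equal length 311 were gained and 259 lost. Leaving out 1 library loosens the rule to 5 lists and gave 213 to 596 gained regions (596 without sgB2/Empty 1, 346 without sgB2/Empty 2, 310 without sgNT/Empty 2, 419 without sgNT/Empty 3) and 375 to 1964 lost ones (627 without sgB2/Empty 3 and 1964 without sgNT/Empty 1, the shortest list).

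Gained and lost regions were spread over the genome. Off chromosomes 1 and X, between 0.342 and 0.802% of a chromosome's regions were gained and between 0.468 and 1.5% lost. On chromosome 1, 62 of 4679 regions were gained (1.33%) and 9 lost (0.192%), and on chromosome X 2 of 818 were gained (0.244%) and 22 lost (2.69%), the direction of each chromosome's covered length.

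**Figure D1:**
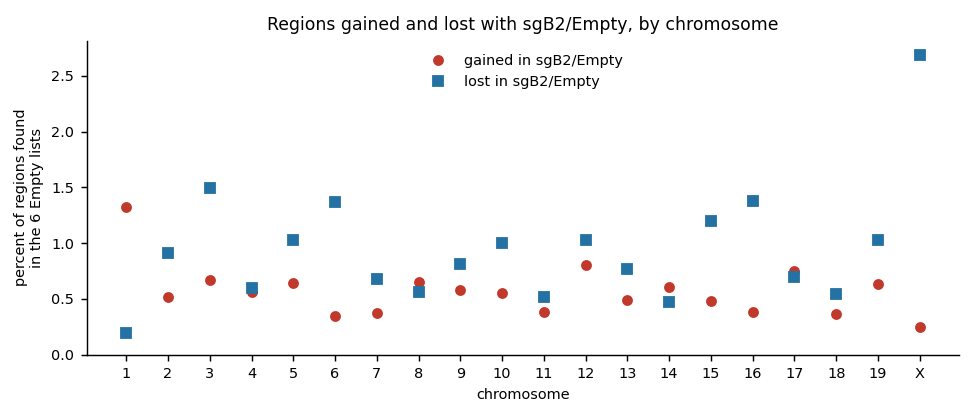
Regions gained (circles) and lost (squares) with sgB2/Empty, as a percent of the regions found on each chromosome in the 6 Empty lists (y axis from 0, x axis chromosome). Chromosome 1 has the largest gained share (1.33%) and the smallest lost share (0.192%), and chromosome X the smallest gained share (0.244%) and the largest lost share (2.69%).

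Both kinds of region lay mostly away from promoters and among the weaker peaks. A promoter window (250 bp before to 50 bp after a gene start, at least 150 bp of it covered) was reached by 17 of 196 gained regions (8.67%) and 33 of 318 lost regions (10.4%), whereas 48.8% of the 13186 regions shared by all 6 lists reached one. A gene end was more than 10 kb away for 127 gained regions (64.8%), 179 lost regions (56.3%) and 27.3% of shared regions. By the authors' −log10 p of each peak, ranked within its list, the median gained region stood at the 32.1st percentile, the median lost region at the 25.2nd and the median shared region at the 69.7th. Shared regions had to pass the peak threshold in every list, so their higher rank is partly set by the rule. Of all 36363 regions found in at least 1 of the 6 lists, 20.9% reached a promoter window and 48.2% lay more than 10 kb away. Their median percentile was 51.2.

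Among the gained regions with the highest rank, the strongest lay at chr10:76961713-76962271. It overlapped an end of Pcbp3, which encodes a poly(C)-binding protein, and the start of the non-coding gene Gm35664. Its peaks were 526, 401 and 431 bp long in sgB2/Empty, at percentiles 82.9, 92.8 and 87.8 of their lists, and absent from the 3 sgNT/Empty lists. With T618I it was again found in 3 sgB2/T618I lists and 0 sgNT/T618I lists. The same 3 to 0 pattern in both vectors held for a region 1.70 kb from Slc22a4 (chr11:54031735-54031986), a transporter of ergothioneine and carnitine, for one 24.8 kb from Zfand3 (chr17:29979927-29980204) and for one inside Arhgef12 (chr9:43096387-43096765), a guanine nucleotide exchange factor. Regions inside Cacng8, which encodes a calcium channel and AMPA receptor subunit, near Gpcpd1 and inside Gse1 were found in 3 sgB2/T618I lists but also in 3, 2 and 2 sgNT/T618I lists. Genes with 2 gained regions nearest to them were Cd86, a co-stimulatory ligand of antigen-presenting cells, Hgf, the ligand of Met, Itga9, Fam155a, Fhit, Gask1b, Lrfn2, Prkrip1 and Vmn2r115.

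Among the lost regions with the highest rank was the promoter of Met, the receptor of hepatocyte growth factor (chr6:17463431-17464255). It had no peak in the 3 sgB2/Empty lists and peaks of 516, 674 and 645 bp in sgNT/Empty. With T618I it was found in 1 sgB2/T618I list and 3 sgNT/T618I lists. Lost regions inside Ppp1r9a (chr6:4973034-4973668), which encodes the actin-binding neurabin, and inside Arap2 (chr5:62677436-62677879), a regulator of Arf GTPases, were in 0 sgB2/T618I and 3 sgNT/T618I lists. Regions 198 kb from Thbs1 (thrombospondin), 78.7 kb from Ednra (an endothelin receptor) and inside Pknox2 were in 0 sgB2/T618I and 2 sgNT/T618I lists. In contrast, the region 4.09 kb from Ngp, a neutrophil granule protein (chr9:110415176-110415717), was in all 6 T618I lists. It had no peak in sgB2/Empty and 274, 229 and 284 bp in sgNT/Empty. The region overlapping an end of Pag1 (chr3:9832935-9833939) was in all 6 too, and whether that end is the gene's start was not read. Genes with 2 lost regions nearest to them were Adam6a, Amotl2, BC107364, Col11a2, Ednra, Nedd4l, Pag1, Pde4d and Zfp386.

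Promoters of gained and lost regions are shown with their motif letters, since they are where a change in accessibility can be read against a known gene start. Of the 4 with the highest rank in either class, those printed had a peak in more T618I lists of the guide that also had it in Empty cells: Gm35664 and Fhit were gained, and Met, 4930444F02Rik and Gsto2 were lost. The sequences are RefSeq promoter windows on GRCm38.p6, 5′ to 3′ on the gene's strand. Capitals mark every match, on either strand, to the letters of PU.1 (GAGGAAG), C/EBP (TTGCNNAA), AP-1 (TGANTCA), RUNX (TGTGGTT), factors of the GATA family (AGATAA), an E-box (CACGTG), a GC box (GGGCGG), NFY (CCAAT) or a cAMP response element (TGACGTCA), and no matches overlap in these 5.
Gm35664 promoter, chr10:76961891-76962190, plus strand: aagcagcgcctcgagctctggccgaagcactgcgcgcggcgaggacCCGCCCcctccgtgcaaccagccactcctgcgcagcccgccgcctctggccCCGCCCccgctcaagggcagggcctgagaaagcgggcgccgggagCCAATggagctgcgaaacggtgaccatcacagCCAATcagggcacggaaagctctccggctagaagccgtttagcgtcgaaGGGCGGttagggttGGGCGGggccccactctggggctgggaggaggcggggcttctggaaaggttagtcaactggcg
Fhit promoter, chr14:11161986-11162285, minus strand: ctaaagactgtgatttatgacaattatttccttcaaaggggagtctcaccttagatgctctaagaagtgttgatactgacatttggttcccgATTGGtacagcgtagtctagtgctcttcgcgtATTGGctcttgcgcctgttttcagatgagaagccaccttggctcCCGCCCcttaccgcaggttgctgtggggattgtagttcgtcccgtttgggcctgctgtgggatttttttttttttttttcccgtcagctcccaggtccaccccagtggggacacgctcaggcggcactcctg
Met promoter, chr6:17463707-17464006, plus strand: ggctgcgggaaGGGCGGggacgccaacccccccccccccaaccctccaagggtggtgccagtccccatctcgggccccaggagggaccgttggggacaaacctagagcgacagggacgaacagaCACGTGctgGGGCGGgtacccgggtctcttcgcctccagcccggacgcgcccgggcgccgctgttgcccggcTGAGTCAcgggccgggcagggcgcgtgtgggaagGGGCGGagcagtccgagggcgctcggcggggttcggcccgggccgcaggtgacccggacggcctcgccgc
4930444F02Rik promoter, chr10:18831881-18832180, minus strand: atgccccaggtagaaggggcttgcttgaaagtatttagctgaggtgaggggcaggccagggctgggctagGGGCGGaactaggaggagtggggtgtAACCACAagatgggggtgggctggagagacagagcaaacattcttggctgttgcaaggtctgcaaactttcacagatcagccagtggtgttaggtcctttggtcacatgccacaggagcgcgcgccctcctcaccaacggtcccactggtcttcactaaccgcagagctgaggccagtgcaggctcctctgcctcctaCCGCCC
Gsto2 promoter, chr19:47865544-47865843, plus strand: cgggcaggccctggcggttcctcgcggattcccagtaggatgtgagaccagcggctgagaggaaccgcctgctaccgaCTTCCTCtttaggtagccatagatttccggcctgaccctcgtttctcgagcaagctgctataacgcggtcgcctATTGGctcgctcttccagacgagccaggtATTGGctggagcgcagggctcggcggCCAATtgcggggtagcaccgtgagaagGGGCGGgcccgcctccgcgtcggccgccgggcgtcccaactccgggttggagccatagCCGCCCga
The Gm35664 window held 4 GC boxes and 2 NFY letters, the Fhit window 2 NFY letters and 1 GC box, and the Met window 3 GC boxes with 1 E-box and 1 AP-1 match. A match is a string of letters and no evidence that a factor binds.

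The letters of PU.1, the ETS factor encoded by Spi1 that directs myeloid development, were found in 13 of 33 lost regions that reach a promoter (39.4%), against 3 of 17 gained ones (17.6%) and 991 of 6437 shared ones (15.4%). Counted by promoter window, 17 of 40 windows in lost regions had them (42.5%) and 13.4% of all 29382 windows off chromosomes 1 and X. C/EBP letters were in 0 of 40 windows in lost regions and in 10.8% of all windows, and in 7.63% of those in shared regions. The median GC content was 64.5% in lost, 62.7% in gained and 63.0% in shared windows. These shares were not tested, and the stretches were chosen for display after the shares had been seen. One stretch per lost region follows, in order of rank, with the PU.1 letters or their reverse complement in capitals.
Gsto2, chr19:47865612-47865638, plus strand: ctgctaccgaCTTCCTCtttaggtagc
Gm38397, chr13:110903461-110903487, plus strand: ggaaacactaCTTCCTCtctttgtcca
AU041133, chr10:82128000-82128026, plus strand: gtgtgtggcaGAGGAAGactcctccat
Gm46355, chr12:70912168-70912194, minus strand: agctcccaaaGAGGAAGcattcgctaa
Ednra, chr8:77724427-77724453, minus strand: ccagagtagaGAGGAAGgtctaggagc
Pop5, chr5:115235657-115235683, plus strand: gatcagggtgCTTCCTCtgggtgacag
F13a1, chr13:37049183-37049209, minus strand: gagtccttttGAGGAAGtacccagagg
Amotl2, chr9:102717614-102717640, plus strand: cgcctcccggGAGGAAGgcgggggctg
Gm32282, chr17:78200045-78200071, minus strand: tgccccggccCTTCCTCcctccacgcc
Irx2, chr13:72628795-72628821, plus strand: tcgagcgctcCTTCCTCaactcctcac
Antxr2, chr5:98031236-98031262, minus strand: gctcgtcgggCTTCCTCccggcgcccc
Nr1h3, chr2:91195009-91195035, minus strand: agggtgaggaGAGGAAGgagagagatg
Zbtb7b, chr3:89387881-89387907, minus strand: ctcctgcctcCTTCCTCtttcggtgcc
The genes span unrelated roles, among them Ednra, F13a1 (coagulation factor XIII subunit), Nr1h3 (the oxysterol receptor LXR alpha), Irx2 (a homeobox factor) and Zbtb7b (a zinc finger factor of T cell development). With T618I, the regions of Gm38397, AU041133, Amotl2, Gm32282 and Nr1h3 were in 0 sgB2/T618I and 3 sgNT/T618I lists, and those of Gm46355, F13a1 and Antxr2 in all 6.

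The same regions were then read in the T618I libraries. These did not enter the rule for gained and lost regions, though their peaks helped set the merged regions. The 196 gained regions had a peak in 55.1, 71.4 and 50% of cases in the 3 sgB2/T618I lists, against 42.3, 33.2 and 39.3% in the 3 sgNT/T618I lists. The 318 lost regions had one in 31.1, 46.5 and 25.8% of cases in sgB2/T618I, against 68.9, 66.4 and 69.2% in sgNT/T618I. No library of one guide overlapped those of the other in either class (exact permutation test, two-sided p = 0.1 each, the smallest possible). Region by region, 91 gained regions were in more sgB2/T618I than sgNT/T618I lists, 23 in fewer and 82 in as many. Of the lost regions, 23 were in more sgB2/T618I lists, 188 in fewer and 107 in as many. The full 3 to 0 rule was met with T618I by 16 gained regions (8.16%) and 56 lost ones (17.6%), where 0.628% and 1.57% of all 39995 regions in the T618I lists met it. Shared regions had a peak in 96.5 ± 1.74% of cases in sgB2/T618I lists and 98.6 ± 0.37% in sgNT/T618I lists (SD, n = 3 each; exact p = 0.2), and the part of list length in these shares was not tested.

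**Figure D2:**
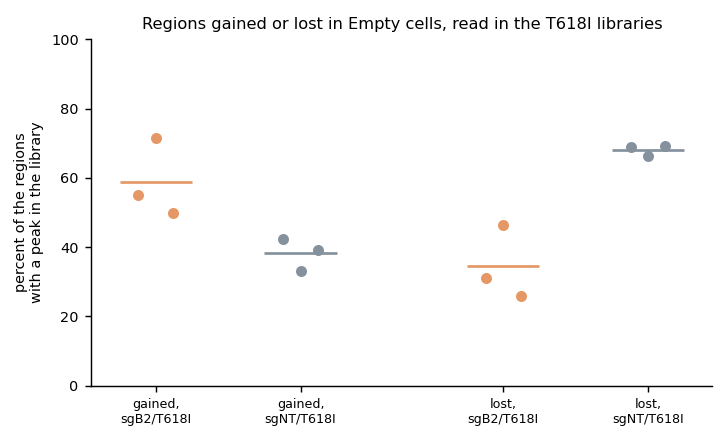
Percent of the regions gained or lost in Empty cells that had a peak in each T618I library (y axis from 0 to 100%; points, libraries; lines, means; sgB2/T618I left of sgNT/T618I). Gained regions lie higher in all 3 sgB2/T618I libraries (50 to 71.4%) and lost regions higher in all 3 sgNT/T618I libraries (66.4 to 69.2%).

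Peak coverage around genes changed at few loci. For each of 13972 genes off chromosomes 1 and X, the peak-covered length of the gene and 50 kb on either side was scaled to equal total covered length and fitted on the log2 scale after adding 500 bp, so that changes of sparsely covered genes are understated. In sgB2/Empty, 13 genes rose (0.0930%) and 6 fell (0.0429%) by limma at an adjusted p below 0.05, at 10 and 6 loci, while 1348 genes had an unadjusted p below 0.05 and the median of all genes was 0.03. The libraries of the 2 groups did not overlap at any of the 19, but this also held for 6.38% of all genes above and 5.70% below. The number called depended on single libraries: it was 56 without sgNT/Empty 1 (13 up, 43 down), 4 without sgNT/Empty 2, 9 without sgB2/Empty 2 and 40 without sgB2/Empty 3, and scaling to all chromosomes gave 12 up and 12 down. Fam155a was called in 16 of 16 alternative settings and Bcl11a in 15 of 15, whereas Aldh4a1 was called in 6 of 17, Calml3 in 6 of 15 and BC107364 in 6 of 14.

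Of the genes that rose, Fam155a had the smallest p. This gene, which encodes an accessory subunit of the sodium leak channel NALCN, had 1.38, 1.42 and 1.72 scaled kb of peaks in sgB2/Empty and was listed at 0 in the 3 sgNT/Empty libraries (limma adjusted p = 0.000236; no fold is given against 0). Its coverage came mainly from a region inside the gene (chr8:9572121-9572718; 510, 526 and 562 bp in sgB2/Empty) and one 37.7 kb outside it (chr8:9811031-9811596; 415, 451 and 432 bp). The inner one was again in 3 sgB2/T618I and 0 sgNT/T618I lists, but with T618I the window as a whole covered 2.0, 1.4 and 2.18 kb in sgB2/T618I and 1.29, 0.66 and 1.41 kb in sgNT/T618I, and Fam155a was not called.

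Nfatc2, a calcineurin-dependent transcription factor, covered 2.93, 2.26 and 1.91 kb in sgB2/Empty and 0, 0.55 and 0.49 kb in sgNT/Empty (log2 change 1.82 ± 0.23; limma adjusted p = 0.0032). Its promoter peak (chr2:168589643-168591483) was 1042, 719 and 649 bp long in sgB2/Empty and 0, 578 and 595 bp in sgNT/Empty. The groups were separate, with the widest gap at sgNT/Empty 1, where Nfatc2 was listed at 0. B3gat1, which makes the HNK-1 glycan, and its neighbour Glb1l2, a galactosidase-like gene, share their peaks and covered 1.45, 3.65 and 1.04 kb in sgB2/Empty, with 0, 0.17 and 0.19 kb in sgNT/Empty (1.92 ± 0.32, adjusted p = 0.024). The next gene along, Glb1l3, was called too. Of the 3 regions in these windows found in at least 2 Empty lists, 2 lay inside or across an end of Glb1l2 and 0 inside B3gat1 or Glb1l3. In sgB2/Empty 2 these 3 regions covered 421, 436 and 0 bp. Most of the 3.65 scaled kb there at B3gat1 and Glb1l2 therefore came from other peaks. B3galt5, another glycosyltransferase, averaged 2.56 ± 0.34 kb in sgB2/Empty and 0.99 ± 0.33 kb in sgNT/Empty (SD, n = 3 each).

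Lrfn2, a synaptic adhesion protein, covered 1.38, 0.49 and 1.07 kb in sgB2/Empty and 0, 0 and 0.15 kb in sgNT/Empty (1.39 ± 0.21, adjusted p = 0.017), with 2 gained regions inside the gene. Camk2b, a subunit of calcium- and calmodulin-dependent kinase II, covered 4.11, 3.65 and 4.09 kb in sgB2/Empty against 1.82, 1.88 and 2.59 kb in sgNT/Empty (0.79 ± 0.13, adjusted p = 0.029). Its neighbour Ykt6, a SNARE protein, shares these peaks. Part of the Camk2b difference lay in a region inside the gene (chr11:6005541-6006584), 872, 1003 and 1021 bp long in sgB2/Empty and 319, 330 and 411 bp in sgNT/Empty. The remaining loci that rose were Sspo, which encodes SCO-spondin (2.63 ± 1.10 kb in sgB2/Empty and 0.67 ± 0.13 kb in sgNT/Empty), Trim52 (1.40 ± 0.04 kb in sgB2/Empty and 0.30 ± 0.27 kb in sgNT/Empty), the calcium channel subunit gene Cacng7 (1.55 ± 0.28 kb in sgB2/Empty and 0.54 ± 0.30 kb in sgNT/Empty) and Aldh4a1 of mitochondrial proline breakdown (3.69 ± 0.31 kb in sgB2/Empty and 2.26 ± 0.13 kb in sgNT/Empty, SD, n = 3 each). Of regions found in at least 2 Empty lists, the Trim52 window held 2 and the Cacng7 window 4, with 0 inside the named gene. The gained regions of the Cacng7 window lay at the Myadm promoter and inside Cacng8.

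Bcl11a, a zinc finger repressor of lymphoid and stem cells that silences fetal globin genes, fell. It covered 0, 0.29 and 0 kb in sgB2/Empty and 1.42, 1.0 and 1.43 kb in sgNT/Empty (log2 change -1.61 ± 0.21; limma adjusted p = 0.0032). The fall rested mainly on 1 region at an end of the gene (chr11:24076494-24078051), absent from the 3 sgB2/Empty lists and 758, 778 and 1534 bp long in sgNT/Empty. It was again in 0 sgB2/T618I and 3 sgNT/T618I lists, and Bcl11a also fell with T618I (0, 0.14 and 0 kb in sgB2/T618I against 0.85, 0.84 and 0.97 kb in sgNT/T618I; -1.35 ± 0.21, adjusted p = 0.011).

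Amotl2, an angiomotin-like protein that binds the Hippo effector YAP, covered 0, 0 and 0.41 kb in sgB2/Empty and 1.54, 2.79 and 1.85 kb in sgNT/Empty (-2.04 ± 0.29, limma adjusted p = 0.0094). Its promoter region, whose PU.1 stretch is printed above, was absent from sgB2/Empty and 349, 596 and 505 bp long in sgNT/Empty, and it was in 0 sgB2/T618I and 3 sgNT/T618I lists. Calml3, a calmodulin-like gene, covered 0, 0.35 and 0.73 kb in sgB2/Empty and 1.55, 1.49 and 1.75 kb in sgNT/Empty, and it too fell in both vectors (-1.38 ± 0.26 in Empty, -1.47 ± 0.26 with T618I; adjusted p = 0.048 and 0.033). BC107364 (0.12 ± 0.21 kb in sgB2/Empty and 1.17 ± 0.17 kb in sgNT/Empty), the guanylyl cyclase gene Gucy2g (0.79 ± 0.17 kb in sgB2/Empty and 2.19 ± 0.43 kb in sgNT/Empty) and Pag1, a membrane adaptor that recruits the kinase Csk (0.90 ± 0.30 kb in sgB2/Empty and 2.07 ± 0.07 kb in sgNT/Empty), also fell in sgB2/Empty relative to sgNT/Empty (SD, n = 3 each). The windows of Calml3 and BC107364 held 3 regions each that were found in at least 2 Empty lists, with 0 inside the named gene. Those of Calml3 lay 32.3 kb outside it, 32.9 kb outside at the Calm4 promoter, and 49.4 kb outside at the Calm5 promoter.

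**Figure D3:**
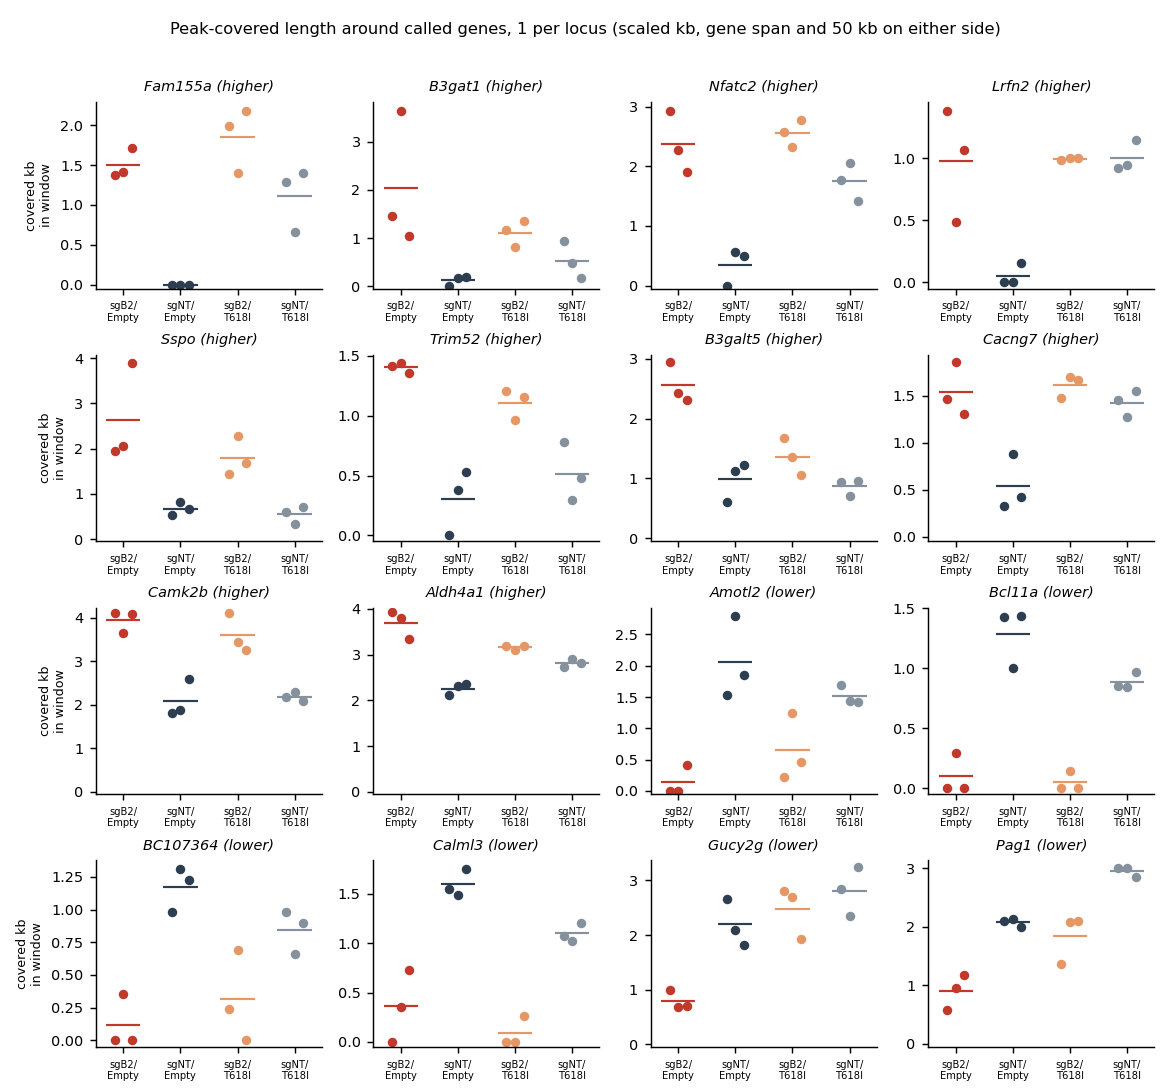
Scaled peak-covered length (kb, y axes from 0) in the window of 1 called gene per locus, with 1 point per library and lines at the means (from the left: sgB2/Empty, sgNT/Empty, sgB2/T618I, sgNT/T618I). The points of sgB2/Empty and sgNT/Empty do not overlap in any panel; Fam155a is at 0 in all 3 sgNT/Empty libraries, and Bcl11a at 0 in 2 of the 3 sgB2/Empty libraries.

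Set beside the same contrast with T618I, from the same fit and with the same spread, 18 of the 19 genes had the same sign and 14 of them an unadjusted p below 0.05 (limma). With T618I 19 genes were called, of which 2 (Bcl11a and Calml3) were called in both with the same sign. Over all 13972 genes the 2 changes correlated at 0.343 (Pearson) and 0.281 (Spearman) across genes, which are not independent replicates, and 61.0% had the same sign. The difference between the 2 changes was called by limma for 0 genes, with 699 at an unadjusted p below 0.05. Lrfn2 stood at -0.00 ± 0.21 with T618I, with 0.98, 1.0 and 1.0 kb in sgB2/T618I and 0.92, 0.94 and 1.15 kb in sgNT/T618I, which overlap. Sspo (1.14 ± 0.22, adjusted p = 0.057) and Camk2b (0.61 ± 0.13, adjusted p = 0.090) had positive changes with T618I that did not pass.

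**Figure D4:**
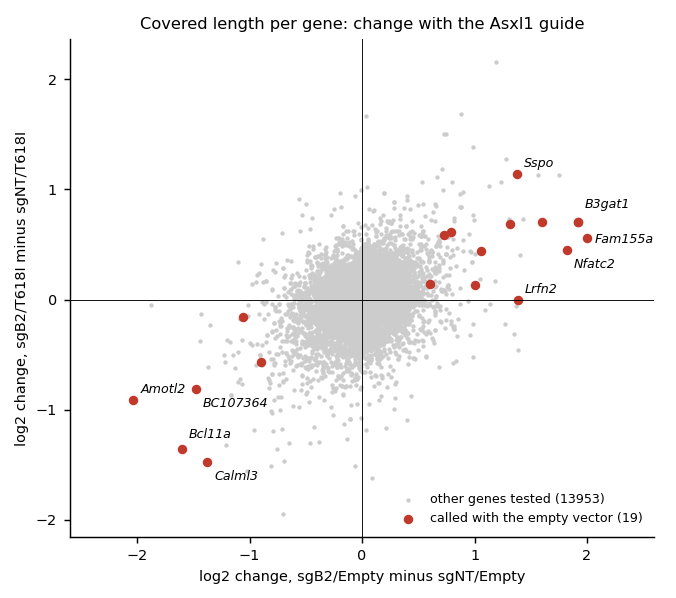
Log2 change of covered length per gene with the Asxl1 guide in Empty cells (x axis, sgB2/Empty minus sgNT/Empty) and with T618I (y axis, sgB2/T618I minus sgNT/T618I); dots are genes off chromosomes 1 and X, and red dots are those called in Empty cells, some of them named. The called genes lie on the same side of 0 in both vectors for 18 of 19.

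On chromosome 1, 21 of 945 genes rose (2.22%) and 0 fell by limma, the median change was 0.33 and 94.1% of genes were positive. The largest changes were at Fmn2, an actin nucleator (1.86 ± 0.31 kb in sgB2/Empty and 0.13 ± 0.22 kb in sgNT/Empty), Nckap5 (2.39 ± 1.04 kb in sgB2/Empty and 0.42 ± 0.36 kb in sgNT/Empty) and Rgs8, a regulator of G protein signalling (1.32 ± 0.36 kb in sgB2/Empty and 0.15 ± 0.15 kb in sgNT/Empty; SD, n = 3 each). On chromosome X, 2 of 364 genes fell (0.549%), Ints6l and Map3k15, each with a change of -0.84. The part of the shift of the whole chromosome in these genes was not tested.

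The 18 gene lists written for this tissue gave 1 call. They held 386 genes, of which 289 were tested and only Bcl11a was called. The list medians lay between -0.10 and 0.09, beside 0.03 for all genes. Of all genes 56.3% had a positive change. Of the 24 tested genes of mature neutrophils 0 were called, 5 had an unadjusted p below 0.05, and 15 were negative. The ones with the smallest p were Wfdc21 (0.54, 1.09 and 1.32 kb in sgB2/Empty against 1.91, 2.24 and 1.84 kb in sgNT/Empty; limma adjusted p = 0.12), the stefin Stfa2l1 (adjusted p = 0.18) and Selplg, the P-selectin ligand (4.99 ± 0.29 kb in sgB2/Empty and 6.62 ± 0.44 kb in sgNT/Empty, adjusted p = 0.22). Retnlg, a resistin-like gene, stood the other way (0.34, 0.52 and 0.59 kb in sgB2/Empty, with 0, 0.21 and 0.31 kb in sgNT/Empty; adjusted p = 0.40). Of the 18 genes of secondary and tertiary granules, 11 were negative, with lysozyme gene Lyz2 at 0.88 ± 0.10 kb in sgB2/Empty and 1.45 ± 0.29 kb in sgNT/Empty (adjusted p = 0.30) and the siderophore binder Lcn2 the other way, at 1.29 ± 0.16 kb in sgB2/Empty and 0.99 ± 0.11 kb in sgNT/Empty (adjusted p = 0.60). Of the 24 myeloid transcription factors 17 were negative, with the smallest p at Irf4 (-1.10 ± 0.33, adjusted p = 0.25) and Bcl6 (-0.80 ± 0.25, adjusted p = 0.26), where the groups' libraries overlapped. Gfi1b, a repressor of erythroid and megakaryocyte development, stood at 0.31 ± 0.15 without overlap (adjusted p = 0.52). The 13 genes of primary granules had 8 positive, with Ms4a3 at 0.53 and the cystatin gene Cst7 at -0.56. Among 18 stem and progenitor genes, Gata2 stood at 0.51 ± 0.16 (adjusted p = 0.26), with 2.55, 3.06 and 2.28 kb in sgB2/Empty above 1.88, 1.74 and 1.45 kb in sgNT/Empty.

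Genes tied to Asxl1 function gave 0 calls. Of 39 Hox genes only 9 had enough coverage to be tested, with changes between 0.07 and 0.20. These 9 were not separate loci, since neighbouring windows share peaks. Hoxb3, Hoxb4 and Hoxb8 had the same covered length in every Empty library and the same change of 0.07, which was also the list median. Of 22 developmental Polycomb targets 8 were tested, 3 positive and 5 negative, and 0 were called by limma, with 3 at an unadjusted p below 0.05 (2 up, 1 down). Of 23 subunits of ASXL, BAP1 and Polycomb complexes, Bap1 itself stood at 1.65 ± 0.22 kb in sgB2/Empty and 2.77 ± 0.55 kb in sgNT/Empty (adjusted p = 0.26). Windows of these subunits held 0 gained and 4 lost regions of the 157 found, at Bap1, Eed and Ring1, which has 2, where 0.539% and 0.875% of all regions were gained and lost. Some other lists had like counts, with 0 gained and 4 lost of 156 regions at mature neutrophil genes and 1 gained and 4 lost of 192 at myeloid transcription factors. Interferon response genes had 0 gained and 0 lost of 98, and JAK-STAT genes 0 gained and 1 lost of 147. Cell cycle and arrest genes had 2 gained and 0 lost of 119. All these counts are small and were not tested against the shares of all regions, so no difference between lists is read from them.

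In the other lists, Xaf1, an interferon-induced pro-apoptotic gene, covered 1.75, 1.49 and 1.48 kb in sgB2/Empty and 0, 0.45 and 0.63 kb in sgNT/Empty, without passing (limma adjusted p = 0.062). With T618I it did not follow (0, 0.33 and 0 kb in sgB2/T618I against 0.34, 0.17 and 0.20 kb in sgNT/T618I). Spp1, the macrophage cytokine osteopontin, covered 0.82 ± 0.17 kb in sgB2/Empty and 1.70 ± 0.65 kb in sgNT/Empty (adjusted p = 0.26), and it fell with T618I (0, 0.21 and 0 kb in sgB2/T618I against 1.68, 1.89 and 1.45 kb in sgNT/T618I; adjusted p = 0.0013). The cell cycle inhibitors Cdkn2a and Cdkn2b share a window with 2.09 ± 0.23 kb in sgB2/Empty and 1.45 ± 0.10 kb in sgNT/Empty (adjusted p = 0.28). Housekeeping genes gave 0 calls and a median of 0.01, though Eef2, an elongation factor, stood at 2.71 ± 0.91 kb in sgB2/Empty and 4.44 ± 0.54 kb in sgNT/Empty (adjusted p = 0.17).

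Regions with a peak in every list were compared by their order. Among the 13186 shared regions, each list's −log10 p was turned into ranks and normal scores, and limma called 170 regions ranked higher in sgB2/Empty (1.29%) and 137 ranked lower (1.04%), with 2238 at an unadjusted p below 0.05. Ranking by the authors' fold column instead gave 0 calls and 1571 at an unadjusted p below 0.05, so the calls were made with the −log10 p only. The number called was 600 without sgNT/Empty 1 and 142, 75 and 169 without sgB2/Empty 1, 2 and 3, with 89 and 82 without sgNT/Empty 2 and 3. In MACS2 broad peaks this value is the mean over the positions of a peak. A promoter window was reached by 40% of regions ranked higher and 29.9% of those ranked lower. Scaled covered length was longer in sgB2/Empty for 74.1% of the regions ranked higher, 62.8% of those ranked lower and 66.3% of all. Without scaling, the median covered length of shared regions was 538 ± 52.0 bp in sgB2/Empty and 601 ± 95.3 bp in sgNT/Empty (SD, n = 3 each; exact permutation test, p = 0.4). The scaled shares therefore do not show that shared peaks were wider in sgB2/Empty.

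The region with the smallest p overlapped an end of Garem1, an adaptor of growth factor receptors (chr18:21299772-21300731). Its percentiles among shared regions were 95.9, 97 and 96.3 in sgB2/Empty and 30.2, 11 and 11 in sgNT/Empty (limma adjusted p = 5.0e-08). Whether that end is the gene's start was not read, since no promoter window on chromosome 18 was used. The Hook1 promoter, of a microtubule linker, stood at 69.8, 70.3 and 69.3 in sgB2/Empty and 0.542, 2.66 and 5.96 in sgNT/Empty. The promoter of Ece1, the endothelin-converting enzyme, stood at 74.5, 74.5 and 75.3 in sgB2/Empty and 10.2, 16.8 and 8.79 in sgNT/Empty. Regions near Fbxw7, a ubiquitin ligase subunit (83.2 ± 3.45 in sgB2/Empty and 26.4 ± 4.55 in sgNT/Empty), and Fut8, the core fucosyltransferase (78.5 ± 11 in sgB2/Empty and 16.0 ± 8.05 in sgNT/Empty), were also higher. Ranked lower were regions near Creb5 (29.2 ± 6.07 in sgB2/Empty against 85.7 ± 2.37 in sgNT/Empty), at the promoter of Fcor, a Foxo1 corepressor (16.1 ± 8.54 in sgB2/Empty and 77.0 ± 7.84 in sgNT/Empty), and inside Hivep3 (12.2 ± 5.67 in sgB2/Empty and 68.1 ± 11.7 in sgNT/Empty). The nuclear receptor gene Nr4a1 (11.5 ± 5.53 in sgB2/Empty and 66.5 ± 7.64 in sgNT/Empty) was in this group too. The Camk2b region that was longer in sgB2/Empty was ranked lower there, at 57.6, 30.6 and 25 in sgB2/Empty and 88.5, 97.3 and 92.0 in sgNT/Empty.

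**Figure D5:**
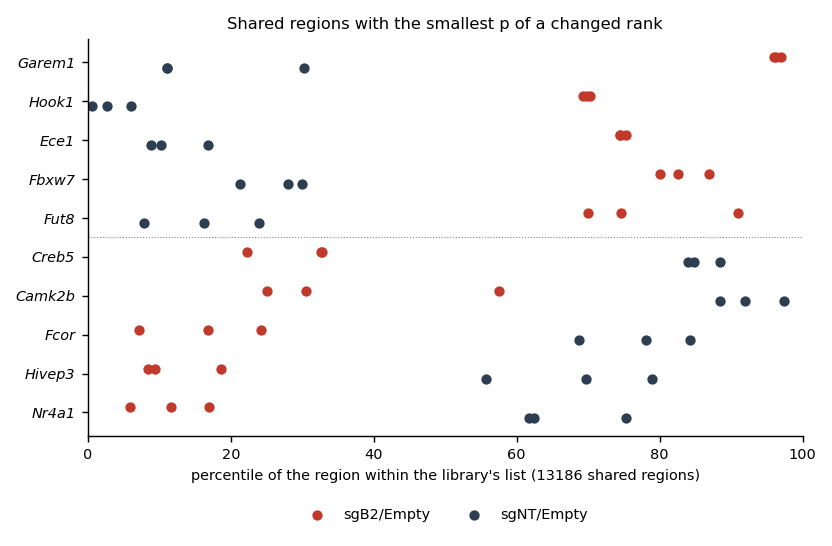
Percentile among 13186 shared regions (x axis, 0 to 100) of the 5 regions with the smallest p in each direction (ranked higher above the dotted line), named by their nearest gene, with 1 point per library and the row of sgB2/Empty above that of sgNT/Empty. The Garem1 points sit at 95.9 to 97 in sgB2/Empty and 11 to 30.2 in sgNT/Empty, and the Nr4a1 points lie lower in all sgB2/Empty libraries.

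Of the 170 regions ranked higher, 147 were shared by the T618I lists too and 128 of these were higher in sgB2/T618I than in sgNT/T618I. Of the 137 ranked lower, 102 of 120 were lower there, where 50.1% of all regions were higher. Several regions were known blood genes, named here after their values were seen. Windows of the neutrophil alarmin genes S100a8 and S100a9 held 3 regions ranked lower, 1 of them nearest to S100a7a. They lie close together on chromosome 3 and are not 3 separate loci. No other region ranked lower among the 33 of secondary and tertiary granule genes (9.09%, beside 1.04% of all shared regions), and 0 ranked higher. Of 68 regions of mature neutrophil genes, 1 ranked higher (Clec4d and Clec4e) and 1 lower (Itgb2). The S100a8 promoter stood at 38.5 in sgB2/Empty and 79.6 in sgNT/Empty (mean of 3 libraries; adjusted p = 0.0029, limma). Runx1, a master regulator of blood stem cells, had 3 regions ranked higher nearest to it, its own promoter among them (93.7 in sgB2/Empty and 78.8 in sgNT/Empty; adjusted p = 0.034). The Id3 promoter, of an inhibitor of E proteins, was higher (51.5 in sgB2/Empty and 8.52 in sgNT/Empty; adjusted p = 0.0041), while a distal region nearest to Id2 was lower (17.6 in sgB2/Empty and 68.7 in sgNT/Empty; adjusted p = 0.0020). The Cdkn2a promoter was higher (31.2 in sgB2/Empty and 2.59 in sgNT/Empty; adjusted p = 0.011), as was that of the p53 target Bbc3 (25.1 in sgB2/Empty and 2.08 in sgNT/Empty; adjusted p = 0.022). The promoters of Cd47, the do-not-eat-me ligand (60.5 in sgB2/Empty and 85.8 in sgNT/Empty; adjusted p = 0.028), and of the phosphatase Ptpn6 (54.0 in sgB2/Empty and 80.8 in sgNT/Empty; adjusted p = 0.032) were lower, as were 2 distal regions nearest to Bcl6.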

How the data were processed

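ATAC-seq peaks of 12 libraries in 4 groups of 3 were compared; groups were taken per the labels. Per the submitters' processing notes, the tools were BWA 0.7.17, SAMtools 1.9, bedtools 2.30, MACS2 2.2.7.1 and deepTools 3.5 and the build was mm10; how each was run is not given in the sources used here. The authors deposited 1 broad peak list per library, with a score, a fold (a ratio over background), a −log10 p and a −log10 q per peak. The deposited score was not used. The deposited fold and −log10 p only ranked peaks within a list, and the −log10 q only filtered them. The files give no read counts, so depth is unknown.

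Peaks overlapping by 1 bp were merged over the 12 lists to 56682 regions. Covered length per gene (span and 50 kb on either side, protein-coding genes of GRCm38.p6, mean of at least 500 bp) was scaled to the total off chromosomes 1 and X, and log2(bp + 500) was fitted with limma (trend, 4 groups of all 12 libraries). Ranks were fitted with the 6 Empty libraries. P-values were adjusted by Benjamini-Hochberg over all features tested. Library measures used exact permutation tests. Merging, presence, covered length and the gene and rank fits were tested on simulated data. Members and lists were chosen with earlier results of these data known. Named were the engineered genes, up to 10 called genes per direction (1 per locus), up to 4 members per list by p, up to 8 regions per class by rank and up to 5 ranked regions per direction by p. Some genes that this rule names are not reported here. Promoter windows came from RefSeq for 17273 of 21627 coding genes (79.9%); none on chromosome 18 was used, so regions there count as not reaching a promoter. Not every pair of samples sharing a replicate number deviated together, so the numbers were not used as pairs. Alternatives covered scaling, added length, filters, windows, peak sets and single libraries. Analyses used python 3.11.15, numpy 2.4.6, pandas 2.3.3, matplotlib 3.10.9, R 4.3.3 and limma 3.58.1.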

Additional observations from a re-analysis of the deposited data

How the results depend on the processing

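The 19 genes called became 2 without scaling (where the median of all genes was -0.16), 30 with 2000 bp added, 5 with peaks of −log10 q of at least 5, 31 with equal-length lists, 7 with only the 6 Empty libraries and 53 with chromosomes 1 and X included. Leaving out 1 library gave 4 to 56 genes. Of the 19, 7 remained in equal-length lists, 7 with 10 kb windows, 4 with only the Empty libraries and 2 with the q filter, and the causes were not tested. Up and down calls were 5 and 8 with 10 kb windows, 17 and 14 with equal-length lists, 2 and 5 with only the Empty libraries, 10 and 3 with 100 bp added and 19 and 7 without the filter. Gained regions numbered 130 with the q filter, 311 in equal-length lists and 213 to 596 without 1 library. Lost regions numbered 107 with the q filter and 375 to 1964 without 1 library. Of the 196 gained and 318 lost regions, 101 and 105 met the rule in equal-length lists and 35 and 31 with the q filter, and of the named regions, chosen for high rank, 8 of 8 gained and 8 of 8 lost did so in equal-length lists, which keep the best-ranked peaks, and 7 of 8 in either class with the q filter. Regions with changed rank numbered 0 by the fold column, 107 on the percentile scale and 75 to 600 without 1 library. The difference in number of peaks ranged over -4627 to 434 with 1 library left out, turning positive without sgNT/Empty 3.

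Over the 17 alternatives, 184 of 302 values of called genes kept sign and call, 116 kept only the sign and 2 changed sign (Ykt6 -0.00567 with 10 kb windows and Aldh4a1 -0.00756 with the q filter). Other signs changed for Csf3r (0.0309 with 10 kb windows and -0.13 to 0.051 without 1 library), Hoxb8 (-0.0942 without scaling, -0.0128 with the q filter, -0.12 to 0.37 without 1 library), Ms4a3 (-0.0117 with 10 kb windows and -0.0144 in equal-length lists), Ms4a2 (-0.0144 in equal-length lists), Hoxb2 (-0.0128), Relb (-0.00828) and Ccr2 (0.14) with the q filter, and Blnk (-0.0413) and Tfrc (0.11) with 10 kb windows; none of these genes was called. With the replicate number as a block, 21 genes and 250 ranked regions were called, keeping 16 of the 19 and 233 of the 307. Deviations of same-numbered libraries correlated at 0.22, 0.01 and 0.19, so the numbers are not shown to pair the libraries.

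Presence of a peak is a threshold on an unknown depth, so absence from a list does not show closed chromatin. Merged regions can join separate sites, and 50 kb windows overlap between neighbours. Groups of 3 cannot pass p = 0.05 in an exact test.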
